A study of Homo sapiens with 3 samples.

Results

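The genes described here are 49 nucleolar ribosome biogenesis factors, and their levels were read in GFP-SAS cells after knockdown of AKT1. They were listed by name for their function, with earlier results of these data already known. Of the 49 genes, 46 had a probe set annotated to that gene alone, out of 18239 genes with such a probe set on the array, and 45 passed a filter on dim genes. GNL3, DDX18 and EBNA1BP2 had no probe set to the gene alone in the annotation used and have no value here. UTP14A was read at 3.29 with siAkt1-22, 3.14 with siAkt1-58 and 3.30 with siNT on the log2 scale, under the limit of 3.93 that was set for dim genes.

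SAS is an established human tongue carcinoma line, and GFP-SAS is the labels' name for the culture. Cells were given 10 nM of siAkt1-22 or siAkt1-58, small interfering RNAs (siRNAs) against AKT1 that both count as Akt1 knockdown in the labels, or of the non-targeting siRNA siNT, for 24 h. Each siRNA is represented by 1 Affymetrix array of total RNA, so 2 siAkt1 libraries stand against 1 siNT library, and every library had been exposed to an siRNA. AKT1 was read at 3.67 with siAkt1-22 and 3.47 with siAkt1-58, against 6.75 with siNT.

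Ribosomes are built in the nucleolus. RNA polymerase I transcribes a long precursor rRNA, small nucleolar RNA-protein particles (snoRNPs) guide its chemical modification, a large assembly called the small-subunit processome folds and cuts it, and separate sets of factors finish the small and large subunits. Many of these genes are known targets of the MYC transcription factor, and AKT signals through mTOR to ribosome production.

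Most of the factors stood below siNT with both siRNAs. The list was drawn up with earlier results of these data known, so the shares given here are no independent test. Of the 45 tested, 38 were lower with both, 1 was higher with both, and 6 were split between the siRNAs or equal to siNT with 1 of them. Over all 12779 genes tested, 21.4% were lower with both siRNAs and 30.9% were higher with both. Dim genes often have exactly equal values on these arrays, so the share was also taken over the brighter 9120 genes, where it was 25.2% against 37 of the 44 factors that remained. The median difference of the 45 factors was -0.37 with siAkt1-22 and -0.38 with siAkt1-58 on the log2 scale, against 0 and 0 over all genes tested. The factors' differences were modest. With both siRNAs, 6 were at least 1.5-fold lower (3.58% of all genes) and 0 were at least 2-fold lower (1.17% of all genes).

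The limma fit of both siAkt1 libraries against siNT, which has 1 residual degree of freedom, passed 0 of the 45 factors and 0 of all genes (0% called; lowest adjusted p = 0.607). At an unadjusted p under 0.05 it held 6 of the 45 factors (NOP56, UTP20, BOP1, DKC1, NOB1 and GNL2) and 954 genes in all, 7.47% of those tested. No difference of a factor below passed this test, and both siRNAs are compared with the same siNT library. The spread in the fit is that between the siAkt1-22 and siAkt1-58 libraries, which differ in siRNA, and the labels do not say whether cultures were replicated. Each array read RNA pooled from many cells, so less RNA of these genes per cell and fewer cells making it cannot be told apart. Array values are also relative within a library, so a change in total RNA per cell would not show.

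**Figure D1:**
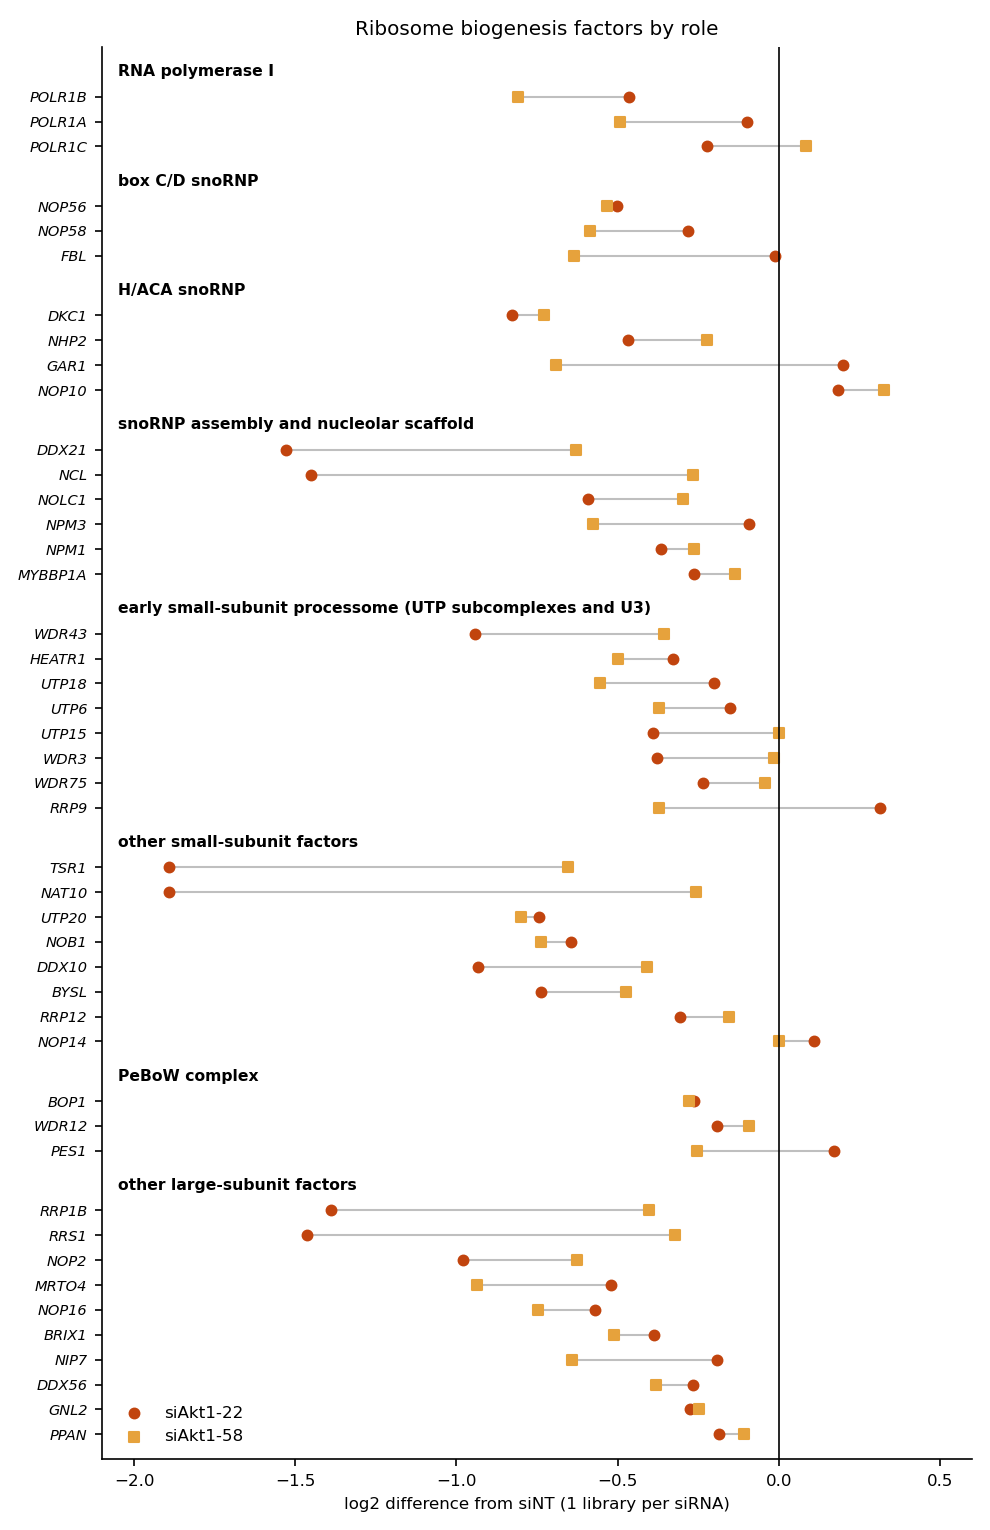
Log2 difference from siNT (x axis) of the 45 tested ribosome biogenesis factors (rows, grouped by role), with siAkt1-22 as circles and siAkt1-58 as squares, 1 library each; the grey line joins the values of a gene. Nearly all points lie left of 0, and NOP10 is the gene with both points to its right.

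The 6 factors at least 1.5-fold lower with both siRNAs act at different steps. UTP20, a very large scaffold protein of the small-subunit processome, was read at 5.20 with siAkt1-22 and 5.14 with siAkt1-58, against 5.94 with siNT, differences of -0.74 and -0.80. DKC1, the pseudouridine synthase of H/ACA snoRNPs, was read at 9.52 and 9.62 in the siAkt1 libraries, against 10.35 with siNT. NOB1, the endonuclease that makes the last cut at the end of the small-subunit rRNA, was read at 9.07 and 8.98, against 9.71. In these 3 genes the siAkt1 libraries lay within 0.10 of each other and apart from siNT. By the smaller of the pair of differences, UTP20 ranked 277, DKC1 292 and NOB1 389 of the 12779 genes.

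The other three were also lower with both siRNAs but less alike between them. NOP2, a cytosine methyltransferase of the large-subunit rRNA, was read at 6.82 with siAkt1-22 and 7.18 with siAkt1-58, against 7.80 with siNT. TSR1, a late small-subunit factor related to GTPases, was read at 6.64 and 7.87, against 8.53. DDX21, an RNA helicase that works with RNA polymerase I and on snoRNAs, was read at 9.63 and 10.53, against 11.16. In TSR1 and DDX21 the siAkt1-22 library was the lowest by a wide margin, with folds below siNT of 3.71 and 2.89, and the siAkt1-58 library lay between it and siNT, at 1.57-fold and 1.55-fold below siNT. The next probe set of TSR1 was -0.89 and -0.29, and those of NOP2 were -0.88 and -0.59, and -0.68 and -0.43. With siAkt1-58, TSR1 thus passed the 1.5-fold limit on 1 of its 2 probe sets and NOP2 on 2 of 3, while all 3 of DDX21 passed it with both siRNAs. Just outside the limit were NOP16 (-0.57 with siAkt1-22 and -0.75 with siAkt1-58), MRTO4 (-0.52 and -0.94) and NOP56 (-0.50 and -0.53).

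**Figure D2:**
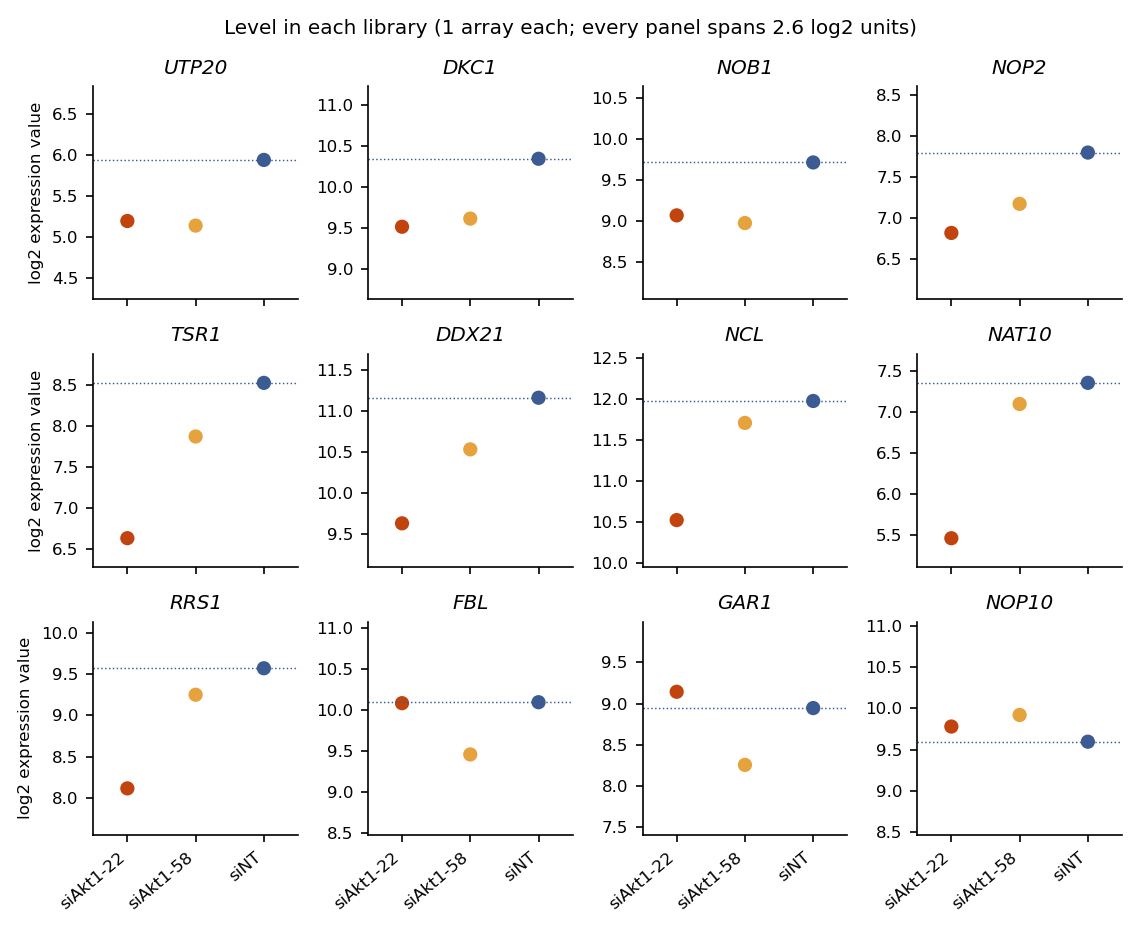
Log2 expression value (y axis) of 12 ribosome biogenesis factors in each library (x axis), 1 array each, with a dotted line at the siNT level. UTP20, DKC1 and NOB1 are alike in both siAkt1 libraries, TSR1, DDX21, NCL, NAT10 and RRS1 are lowest with siAkt1-22, and in FBL and GAR1 the siAkt1-58 library is the lowest, with siAkt1-22 at -0.01 and 0.20 from siNT.

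The promoters of these genes were examined because the factors are often described as sharing transcriptional control. RefSeq windows (GRCh38.p14, 250 bases before to 50 bases after the start) were at hand for 42 of the 49 genes and were searched on both strands for the E-box CACGTG, which MYC with MAX and other factors bind and which reads the same on both strands, for CCGGAAG, which contains the core bound by ETS factors, and for the TATA-box letters TATAAA. The windows below, 5′ to 3′ on the strand of the gene, belong to 5 of the 6 factors above and to FBL, the box C/D methyltransferase, and show where the letters lie. Capitals mark every match to the 3 motifs. The windows of NOP2, DDX21 and FBL were picked for holding an E-box. That of NOB1, the factor of the 6 that was not printed, held no match.

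UTP20, chr12:101279855-101280154, plus strand: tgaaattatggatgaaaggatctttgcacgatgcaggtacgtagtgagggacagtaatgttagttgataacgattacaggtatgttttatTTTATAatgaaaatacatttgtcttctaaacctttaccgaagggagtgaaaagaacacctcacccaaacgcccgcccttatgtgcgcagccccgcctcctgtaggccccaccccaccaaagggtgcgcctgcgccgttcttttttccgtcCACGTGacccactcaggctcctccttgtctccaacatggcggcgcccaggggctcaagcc
DKC1, chrX:154762614-154762913, plus strand: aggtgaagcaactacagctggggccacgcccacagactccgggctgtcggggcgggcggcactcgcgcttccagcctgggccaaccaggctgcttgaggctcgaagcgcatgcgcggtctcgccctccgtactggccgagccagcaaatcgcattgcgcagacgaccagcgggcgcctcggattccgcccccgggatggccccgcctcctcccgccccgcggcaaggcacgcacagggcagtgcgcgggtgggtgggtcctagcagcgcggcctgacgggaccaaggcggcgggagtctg
TSR1, chr17:2336408-2336707, minus strand: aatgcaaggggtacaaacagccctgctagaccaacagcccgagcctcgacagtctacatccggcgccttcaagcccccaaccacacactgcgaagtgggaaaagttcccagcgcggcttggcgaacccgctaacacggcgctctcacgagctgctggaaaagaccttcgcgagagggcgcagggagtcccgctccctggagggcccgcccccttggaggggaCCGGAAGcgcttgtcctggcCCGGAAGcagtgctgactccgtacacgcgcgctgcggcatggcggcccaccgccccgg
NOP2, chr12:6568242-6568541, minus strand: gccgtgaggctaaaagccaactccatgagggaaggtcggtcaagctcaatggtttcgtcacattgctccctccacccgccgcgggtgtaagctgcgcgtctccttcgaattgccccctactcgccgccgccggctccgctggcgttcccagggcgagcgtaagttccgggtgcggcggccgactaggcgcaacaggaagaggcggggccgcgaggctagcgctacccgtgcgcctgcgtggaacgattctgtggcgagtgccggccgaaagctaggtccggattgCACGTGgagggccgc
DDX21, chr10:68956397-68956696, plus strand: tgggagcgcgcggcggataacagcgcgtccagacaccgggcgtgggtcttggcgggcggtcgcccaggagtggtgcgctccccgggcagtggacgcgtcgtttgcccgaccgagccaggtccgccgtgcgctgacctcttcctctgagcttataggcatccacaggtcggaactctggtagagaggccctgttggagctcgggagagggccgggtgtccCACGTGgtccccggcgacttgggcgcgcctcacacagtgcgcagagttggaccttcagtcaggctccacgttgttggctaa
FBL, chr19:39846330-39846629, minus strand: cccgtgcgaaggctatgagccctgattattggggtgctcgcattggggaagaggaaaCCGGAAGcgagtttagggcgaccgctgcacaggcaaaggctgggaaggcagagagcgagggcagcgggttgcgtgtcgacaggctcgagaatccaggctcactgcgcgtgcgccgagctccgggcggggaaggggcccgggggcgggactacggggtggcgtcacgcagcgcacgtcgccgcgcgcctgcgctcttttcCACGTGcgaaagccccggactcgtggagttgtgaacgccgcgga

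The E-box started 10 bases before the start of UTP20 (position -10), at -31 in DDX21, at 7 in FBL and at 36 in NOP2. TSR1 held CCGGAAG at -28 and -8 and FBL at -193, each with no overlap with another motif, and UTP20 held TATAAA at -160. DDX21 has 2 windows, and the one not printed held CCGGAAG. In DKC1 none of the 3 sets of letters occurred. CACGTG was present for 19 of the 42 factors (45.2%), and for 16 of the 39 tested ones among them. The share was 12.4% of the 10414 tested genes that have a window. Counted by window, the shares were 40.8% of the 49 windows of all 42 factors and 9.16% of the 15117 windows of tested genes. CCGGAAG was present for 16 of 42 (38.1%) and 15 of the 39 tested factors, against 20.8% of the tested genes. TATAAA was present for 1 of 42 (2.38%), a tested factor, against 9.40%.

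Both the factors with the E-box and those without it had medians below siNT. The 16 tested factors with CACGTG had medians of -0.27 with siAkt1-22 and -0.42 with siAkt1-58. Of these, 11 were lower with both siRNAs (21.4% of all genes). The 23 without CACGTG had medians of -0.38 and -0.41, and 21 were lower with both. These counts describe letters in a window and show no binding. The same split was not computed over all genes with a window.

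RNA polymerase I subunits differed among themselves. POLR1B, the second largest subunit, was read at 8.18 with siAkt1-22 and 7.84 with siAkt1-58, against 8.64 with siNT, and all 6 of its probe sets were lower with both siRNAs, from -1.36 to -0.46 with siAkt1-22 and from -0.99 to -0.38 with siAkt1-58. POLR1A, the largest subunit, was -0.10 and -0.49. POLR1C, which is shared with RNA polymerase III, was -0.22 and 0.08.

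The snoRNP core proteins were not uniform either. Among box C/D proteins, the scaffold NOP56 was read at 9.95 with siAkt1-22 and 9.92 with siAkt1-58, against 10.45 with siNT, and its 4 probe sets ranged only from -0.62 to -0.50 and from -0.69 to -0.53. Its partner NOP58 was -0.28 and -0.59, while FBL was read at 10.08 and 9.46, against 10.09 with siNT. The siAkt1-22 library lay almost at the siNT level in FBL. Among H/ACA proteins, which also serve telomerase, DKC1 was lower with both siRNAs in both of its probe sets (-0.83 and -0.73, and -0.65 and -0.79). NHP2 was -0.47 and -0.22. GAR1 was read at 9.14 with siAkt1-22 and 8.25 with siAkt1-58, against 8.94 with siNT, so its siAkt1 libraries lay on opposite sides. NOP10, the smallest of the core proteins, was read at 9.78 and 9.92, against 9.60, and was the factor above siNT with both siRNAs.

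The 6 snoRNP assembly and nucleolar scaffold genes were all lower with both siRNAs (21.4% of all genes). NCL, which encodes nucleolin, an abundant RNA-binding protein of the nucleolus, was read at 10.53 with siAkt1-22 and 11.71 with siAkt1-58, against 11.98 with siNT. NPM1, a nucleolar chaperone, was read at 12.47 and 12.58, against 12.84, and each of its 6 probe sets was lower, from -0.37 to -0.21 and from -0.39 to -0.15. Its relative NPM3 was -0.09 and -0.58. NOLC1, a chaperone of snoRNPs, was -0.59 and -0.30 in its brightest probe set and -0.75 and -0.84 in the next. MYBBP1A, a nucleolar regulator of rRNA synthesis, was -0.26 and -0.14, but 2 of its other 4 probe sets were equal in all 3 libraries, and the rest were -0.57 and -0.14 with each siRNA.

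Of 8 processome factors of the UTP subcomplexes and the U3 snoRNP, 6 were lower with both siRNAs (21.4% of all genes). The medians were -0.28 and -0.36. HEATR1 (-0.33 and -0.50), WDR43 (-0.94 and -0.36), WDR75 (-0.23 and -0.04) and UTP15 (-0.39 and 0) belong to the subcomplex linked to rRNA transcription. The other UTP15 probe sets were lower with both siRNAs, at -0.40 and -0.61, and at -0.45 with each. A second WDR43 probe set was read at 5.14 with siAkt1-22 and 7.91 with siAkt1-58, against 8.11 with siNT, a difference of -2.97 with siAkt1-22 and -0.19 with siAkt1-58. UTP18 (-0.20 and -0.56), UTP6 (-0.15 and -0.37) and WDR3 (-0.38 and -0.01) belong to another subcomplex. RRP9, a protein of the U3 snoRNP, was 0.31 with siAkt1-22 and -0.37 with siAkt1-58, so the siAkt1 libraries lay on opposite sides of siNT.

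The remaining small-subunit factors held the lowest medians of the roles with siAkt1-22, -0.74 over 8 tested genes, against -0.44 with siAkt1-58. NAT10, the acetyltransferase that modifies cytidines of the small-subunit rRNA, was read at 5.47 with siAkt1-22 and 7.10 with siAkt1-58, against 7.36 with siNT, and its other 2 probe sets gave -1.51 and -1.39 with siAkt1-22 and -0.22 and -0.14 with siAkt1-58. The helicase DDX10 was -0.93 and -0.41. BYSL, which encodes bystin, was -0.74 and -0.47, and RRP12 was -0.31 and -0.15. NOP14 was 0.11 and 0.

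All 10 tested large-subunit factors outside the PeBoW complex were lower with both siRNAs (21.4% of all genes). Their medians were -0.45 and -0.46. RRS1, which helps to bring the smallest ribosomal RNA particle into the precursor, was read at 8.11 with siAkt1-22 and 9.25 with siAkt1-58, against 9.58 with siNT. RRP1B was read at 8.30 and 9.29, against 9.70. MRTO4, a relative of a stalk protein of the ribosome, went the other way between the siRNAs, at 7.88 and 7.46, against 8.40, and its second probe set was -0.56 and -1.33. NOP16 was -0.57 and -0.75, NIP7 -0.19 and -0.64, and BRIX1 -0.39 and -0.51. The helicase DDX56 (-0.27 and -0.38), the GTPase GNL2 (-0.28 and -0.25) and PPAN (-0.18 and -0.11) were nearer to siNT. The 3 PeBoW proteins, which process the large-subunit rRNA together, stood close to siNT, with BOP1 at -0.26 and -0.28, WDR12 at -0.19 and -0.09, and PES1 at 0.17 and -0.25.

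**Figure D3:**
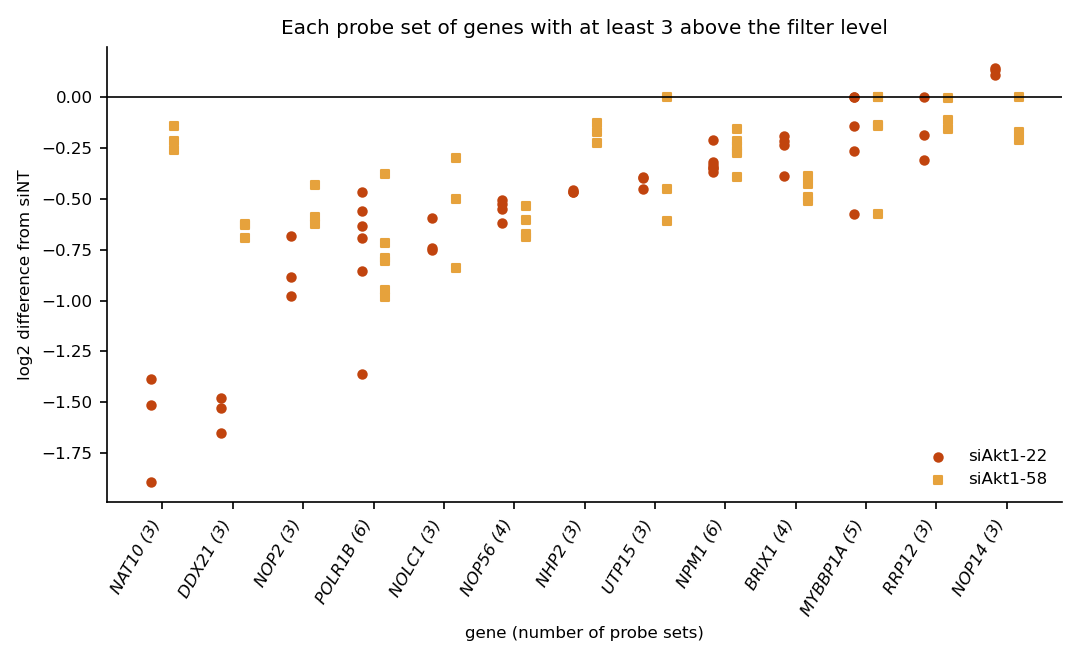
Log2 difference from siNT (y axis) of every probe set above the filter level for the 13 factors with at least 3 of them (x axis, number in brackets), siAkt1-22 as circles and siAkt1-58 as squares. The probe sets of NAT10, DDX21, NOP2, POLR1B, NOLC1, NOP56, NHP2, NPM1 and BRIX1 all lie below 0 with both siRNAs, and the gap between the siRNAs in NAT10 and DDX21 recurs in each of their probe sets.

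Separate probe sets of a gene read the same RNA on the same array and are no replicates, but they show whether a value rests on a single probe set. The factors had 99 probe sets above the filter level, of which 83 were lower with both siRNAs. The same share over all probe sets of the array was not computed. Of 31 factors with more than 1 such probe set, 23 had all of them lower with both. The exceptions were GAR1, MYBBP1A, NOP14, POLR1C, RRP12, UTP15, UTP18 and UTP6. RRP1B, BYSL, UTP20, NOB1, RRS1, DDX10, FBL, NPM3, DDX56, BOP1, PES1, PPAN, RRP9 and NOP10 rest on 1 probe set above that level.

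Between the siRNAs, some factors differed in either direction, at shares not far from those of all genes. Against siNT, 14 factors were at least 1.5-fold lower with siAkt1-22 (12.0% of all genes) and 13 with siAkt1-58 (8.74% of all genes), and 6 were on both of these lists. Set directly against each other, 7 factors were lower in the siAkt1-22 library than in the siAkt1-58 library by 1.5-fold or more (10.8% of all genes), namely NAT10, TSR1, NCL, RRS1, RRP1B, DDX21 and WDR43. The other way, FBL, RRP9 and GAR1 were higher in the siAkt1-22 library by 1.5-fold or more, 3 of 45 (12.1% of all genes). Over the 45 factors the median difference between the siRNAs was -0.08.

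In 4 factors the siAkt1-22 library was the lower of the pair by 2-fold or more (5.28% of all genes), and in 0 it was the higher by as much. NAT10 was -1.89 from siNT with siAkt1-22 and -0.26 with siAkt1-58. NCL was -1.45 and -0.27, RRS1 -1.46 and -0.32, and TSR1 -1.89 and -0.65. With 1 library per siRNA these gaps have no test. In 680 of the genes tested the siAkt1-22 library was 2-fold or more above or below both of the others, against 256 for siAkt1-58 and 244 for siNT, and its 24 spiked poly-A control probe sets had a median of -0.56 from siNT, against -0.01 with siAkt1-58. The part of that library's condition in the values of NAT10, NCL, RRS1, TSR1, DDX21, RRP1B and WDR43 was not tested. Without siAkt1-22, 41 of the 45 factors were below siNT, against 4727 of all 12779 genes tested. Without siAkt1-58, 40 factors and 4558 of all genes were.

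**Figure D4:**
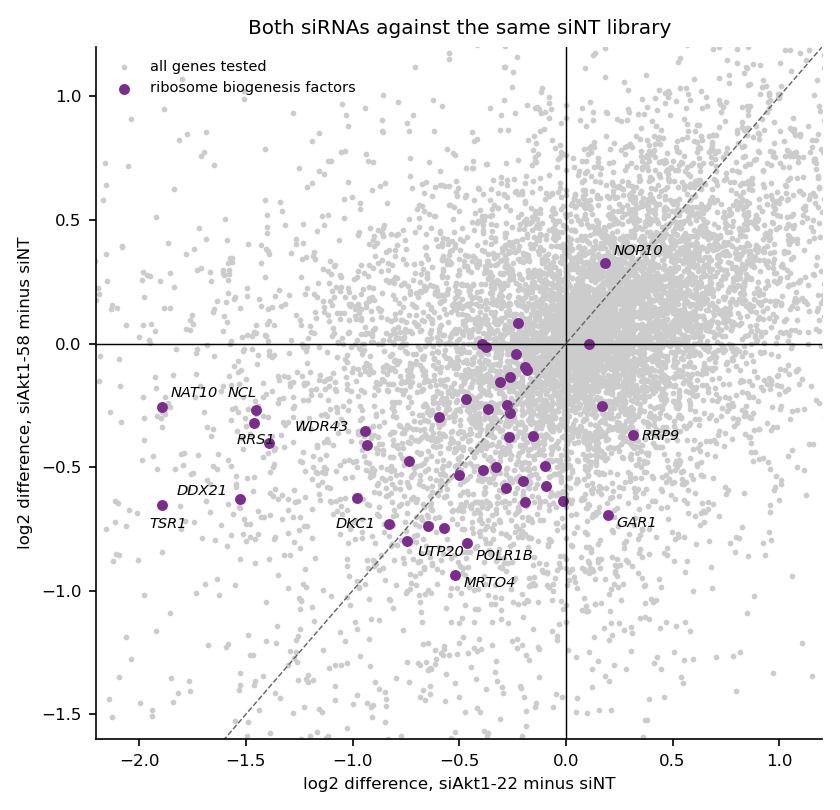
Log2 difference from siNT with siAkt1-22 (x axis) and siAkt1-58 (y axis) for ribosome biogenesis factors (purple) and all genes tested (grey; 630 lie outside the axes); the dashed line marks equal differences. The purple points lie mostly in the lower left. In 7 factors the siAkt1-22 library was 1.5-fold or more below the siAkt1-58 library (10.8% of all genes). In 3 factors it was 1.5-fold or more above it (12.1% of all genes).

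Other genes of the same pathway stood on the same side in smaller shares. Their lists were put together by role, also with earlier results of these data known. Outside the list, 127 factors of RNA polymerase I, of the small and large subunits and of precursor trimming were tested. Of these, 69 were lower with both siRNAs (21.4% of all genes) and 12 higher (30.9%). The medians were -0.19 with siAkt1-22 and -0.30 with siAkt1-58. TCOF1, which encodes treacle, a cofactor of RNA polymerase I, was read at 7.54 and 7.61 in the siAkt1 libraries, against 8.64 with siNT, and AFG2A, an ATPase of large-subunit maturation, at 4.64 and 4.38, against 6.30. These were the 2 of the 127 factors at least 2-fold lower with both siRNAs, against 1.17% of all genes. The small-subunit factor NOL11 was -1.28 and -0.70 and SDAD1, a large-subunit factor, -2.35 and -0.78. On the other side, NSA2 was 0.61 and 0.38 and the exosome subunit EXOSC6 0.69 and 0.22.

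Ribosomal proteins are what these factors assemble with rRNA. Of 68 tested genes for cytosolic ribosomal proteins, 5 were below siNT with both siRNAs (21.4% of all genes) and 27 above it (30.9%). The medians were -0.01 and 0.07. RPL35A was -0.24 and -0.34, and RPL21 was 0.21 and 0.24. The difference between the lists was not tested. E-box letters were in the windows of 4 of 63 ribosomal protein genes (6.35%). In the further biogenesis lists they were present for 15 of 40 small-subunit factors (37.5%), 13 of 47 large-subunit factors (27.7%), 2 of 13 exosome and trimming factors (15.4%) and 1 of 11 RNA polymerase I factors (9.09%).

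**Figure D5:**
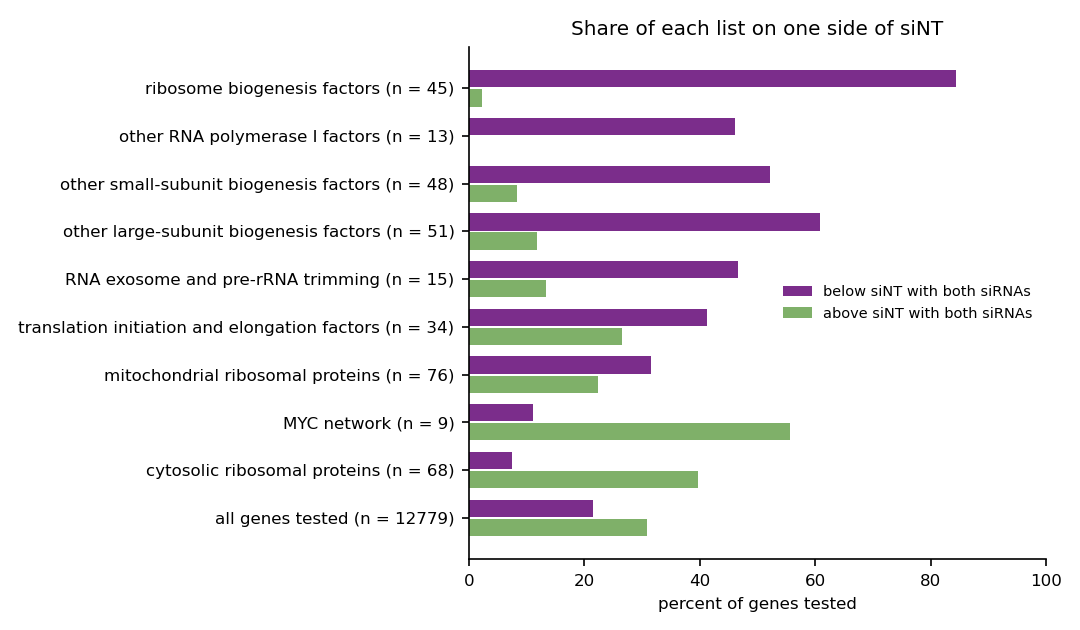
Percent of tested genes (x axis) below siNT (purple) or above siNT (green) with both siRNAs in each list (rows, number of genes tested in brackets), with all genes tested in the last row. The ribosome biogenesis factors reach 84.4% below siNT, the other biogenesis lists 46.2% to 60.8%, cytosolic ribosomal proteins 7.35% and all genes tested 21.4%.

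The labelled cell type was checked by marker genes. Of the squamous markers with a probe set, KRT5, CDH1, DSP and ITGB4 were above the filter level in all libraries, while KRT14 was at 3.67, 3.67 and 3.66. Above the filter level stood 1 of 6 fibroblast, 1 of 5 leukocyte and 2 of 4 endothelial markers, of which CD68, a lysosomal protein, was higher with both siRNAs (0.42 and 0.81) and the others equal in all 3 libraries.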

How the data were processed

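The deposited table holds log2 expression values per probe set for 3 arrays. Per the labels' protocols, 10 ng of total RNA was labelled by a 3′ in vitro transcription kit, and the submitters' processing notes name RMA, without a version or settings. The log2 scale was read from the values (2.20 to 13.4). RMA levels the arrays' distributions and summarises a set by median polish, which with 3 arrays often gives equal values: 11.1% of the genes tested were equal in all 3.

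Probe sets were named from the platform annotation, with symbols updated through Entrez identifiers (45172 of 45253 probe sets with 1 gene). Left out were 1327 probe sets annotated to several genes, 2713 outside the annotation and 93 controls. The brightest probe set by mean log2 stood for each of 18239 genes, and those from the 30th percentile of gene means upward, 12779 in all, were tested. Limma 3.58.1 (R 4.3.3; lmFit and eBayes) set siAkt1 against siNT, two-sided, with p-values adjusted by Benjamini-Hochberg across the genes tested and a threshold of 0.05, a fit that lets the single siNT library vary like the siAkt1 pair. Everything else is a difference, a count or a median, computed in Python 3.11.15. Members and gene lists were chosen with earlier results of these data known. Outside the members, the text names AKT1, MYC and its partners, cell type markers and, per list, at most 3 genes lowest and 2 highest with both siRNAs. Promoters printed are those of the 3 members with the largest shared difference, plus, from each of 3 roles, the member with an E-box and the largest shared difference.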

Additional observations from a re-analysis of the deposited data

How the results depend on the processing

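The count of factors below siNT with both siRNAs (38 of 45) was 38 with averaged probe sets, 38 with median-centred arrays, 36 after quantile normalization, 39 of 46 without a filter and 37 of 44 with the filter at the 50th percentile. It was 24 of 31 with the second brightest probe set and 83 of 99 with probe sets as the unit, a setting chosen after seeing the data. Both have other denominators by construction. Over all genes, the share lower with both siRNAs was 24.1% with the second brightest probe set. In the other gene-level settings it ran from 18.1% without a filter to 25.2% with the filter at the 50th percentile. No such share was computed over all probe sets. The count at least 1.5-fold lower with both was 5 with averaged probe sets. Without either siAkt1 library it was 13 to 14 in place of 6, and the count at least 2-fold lower 0 to 6 in place of 0, since a single siRNA then decides; the 6 are those of siAkt1-22. The siAkt1-22 median moved to -0.31 (averaged probe sets), -0.40 (second brightest) and -0.35 (quantile normalization, no filter and the stricter filter), and the siAkt1-58 median to -0.37 (averaged) and -0.35 (quantile). Limma passed 0 factors under each of the 8 alternatives run, and with 1 siAkt1 library left out no residual degrees of freedom remain, so it gave no value. The mean difference changed sign for NOP14 and POLR1C with the second brightest probe set and for RRP9 after quantile normalization, each of these values lying near 0. Without siAkt1-22 it turned for POLR1C (to 0.08) and without siAkt1-58 for GAR1 (to 0.20), PES1 (to 0.17) and RRP9 (to 0.31), whose siAkt1 libraries lie on opposite sides of siNT. It turned for no factor among the 6 at least 1.5-fold lower with both siRNAs under the alternatives run. No paired analysis was possible because the labels number no replicates and siNT has 1 library. The number of arrays limits precision throughout.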

Other observations

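Lists next to ribosome production gave mixed values. Of 9 tested genes of the MYC network, 5 were higher than siNT with both siRNAs (30.9% of all genes) and 1 lower (21.4%). MAX, the partner of MYC, was read at 8.54 with siAkt1-22 and 8.65 with siAkt1-58, against 8.19 with siNT. MXI1, a MAX partner that opposes MYC, was 0.38 and 0.52 from siNT. MYC itself was read at 10.52 and 11.11, against 10.93, so the siAkt1 libraries lay on opposite sides of siNT. MGA was -0.95 with siAkt1-22 and -0.02 with siAkt1-58.

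Among 76 tested mitochondrial ribosomal protein genes, 24 were lower (21.4% of all genes) and 17 higher (30.9%) with both siRNAs. The medians were 0.09 and -0.13. MRPL23 was read at 9.38 and 9.41, against 8.43 with siNT, and MRPS10 was 0.68 and 0.76, while MRPL35 was -0.42 and -0.64. Among 34 translation factors, 14 were lower and 9 higher with both siRNAs, beside the same shares of all genes. EIF3J, a subunit loosely bound to an initiation complex, was -1.40 and -0.44, EIF5 was -0.26 and -0.99, and the helicase EIF4A2 was 0.53 and 0.72. None of these differences was tested beyond limma's fit, which passed 0 genes (954 at an unadjusted p under 0.05).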
